A study of Homo sapiens with 12 samples.

Results

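The CXC chemokines described here are 9 genes, CXCL1, CXCL2, CXCL3, CXCL5, CXCL8, CXCL9, CXCL10, CXCL11 and CXCL16, which were chosen by name and matched by Ensembl identifier among the 58288 genes of the count table. RNA was sequenced from HL-60/S4 cells, a human acute myeloid leukaemia line that grows as promyelocytes, at 8 passages. The 4 groups had 3 libraries each: undifferentiated promyelocytes given vehicle (water), undifferentiated promyelocytes given TNF-α, granulocytes given vehicle and granulocytes given TNF-α. TNF-α was used at 16 ng/mL for 2 h. The granulocytes had first received ATRA (all-trans retinoic acid, a differentiating agent) at 1 µM for 4 days. Per the paper's methods, they were then put in fresh medium, again with 1 µM ATRA, at a lower cell density than the promyelocytes. All 4 groups were kept in growth medium with added calcium. The promyelocytes and the granulocytes were treated in separate experiments, and all libraries come from 1 cell line. Cell type, ATRA, cell density and experiment therefore cannot be told apart, for levels or for the size of the TNF-α response.

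CXC chemokines are small secreted proteins that direct the migration of leukocytes through G protein coupled receptors. Those with a glutamate-leucine-arginine (ELR) motif before the first cysteines, among them CXCL1, CXCL2, CXCL3, CXCL5 and CXCL8 (interleukin 8), attract neutrophils through CXCR2 and, for CXCL8, also CXCR1. CXCL9, CXCL10 and CXCL11 lack that motif, are best known as interferon-induced genes and attract activated T cells through CXCR3. CXCL16 is made as a transmembrane protein, is released by ADAM10 and ADAM17 and binds CXCR6. TNF-α, a cytokine of inflammation, activates the transcription factor NF-κB, which is known to bind the promoters of several of these genes, and neutrophils are known as a source of CXCL8.

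Library totals ranged from 22829189 to 31895061 read pairs on genes. At these depths 3 read pairs, taken as the floor of detection per library, correspond to 0.0941 to 0.131 CPM, the unit of read counts scaled to a common library size. Floors cover counting error only. Of the neutrophil markers, MPO (myeloperoxidase, of the granules) averaged 6427 CPM in vehicle promyelocytes and 2020 CPM in vehicle granulocytes, and the integrin ITGAM (CD11b) 6.40 and 298 CPM. The granule protease ELANE had 42 to 58 read pairs per library in vehicle promyelocytes and 28 to 41 in TNF-α promyelocytes. In granulocytes it had 0 to 1 with vehicle and 0 to 3 with TNF-α. Of the 12 neutrophil markers listed, 8 were called higher and 4 lower in vehicle granulocytes than in vehicle promyelocytes. Of all genes tested, 35.7% were higher and 36.3% lower. Of 8 monocyte or macrophage markers, 1 had no read pair in any library. Their summed level was 2.99 to 4.83 CPM in promyelocytes, 49.2 to 51.5 CPM in vehicle granulocytes and 30.6 to 34.2 CPM in TNF-α granulocytes, nearly all of it the receptor CSF1R, and CD14 had at most 12 read pairs in a library. The part of these markers in the chemokine levels was not tested. Of 8 T, B and NK cell markers, 1 was at 0 in all 12 libraries and the summed level was at most 23.4 CPM, and of 8 fibroblast or endothelial markers 3 were at 0 and the sum was 3.48 to 7.11 CPM.

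Of the 9 members, 8 lie on chromosome 4 (hg38), in a pair of clusters. The first runs from 73740506 to 74099293 (359 kb), holds 9 CXC genes and begins with CXCL8. The second runs from 76001275 to 76041415 (40.1 kb) and holds CXCL9, CXCL10 and CXCL11. CXCL16 is on chromosome 17 at 4733526 to 4739922, minus strand. No member shares exon bases with another gene of the same strand, and 85 bases of CXCL16 lie opposite MED11 in a table counted by strand. CXCL1, CXCL2 and CXCL3 are close copies: the longest coding transcripts of CXCL1 and CXCL2 are 83.7% identical, those of CXCL2 and CXCL3 73.0% and those of CXCL1 and CXCL3 69.2%. No stretch of 150 bases, the read length, was identical between the coding transcripts of any members. The transcripts came from a later GENCODE annotation than the counts. Only the 9 members were compared, so stretches shared with other genes, and near matches, were not examined.

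RefSeq promoter windows, 250 bases before to 50 after the start (GRCh38.p14), were found for 8 members. They are shown because 7 of the 8 hold the same 9 letters, GGAATTTCC, a form of the κB site that NF-κB can bind. The exception was CXCL9. On either strand these letters occur in 162 of 35116 promoter windows (0.461%). In CXCL1, CXCL2, CXCL3 and CXCL5 a further G stands before them, which makes a longer κB form of 10 letters that is in 51 windows (0.145%). The stretches below are 5′ to 3′ on the gene's strand, with the matched letters in capitals.
CXCL1, chr4:73869305-73869333, plus strand: tggaactccGGGAATTTCCctggcccggg
CXCL2, chr4:74099254-74099282, minus strand: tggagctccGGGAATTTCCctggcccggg
CXCL3, chr4:74038749-74038777, minus strand: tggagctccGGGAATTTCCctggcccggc
CXCL5, chr4:73998749-73998777, minus strand: atgagttcaGGGAATTTCCccagcatccc
CXCL8, chr4:73740468-73740496, plus strand: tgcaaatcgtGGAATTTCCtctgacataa
CXCL10, chr4:76023655-76023683, minus strand: aggagcagagGGAAATTCCgtaacttgga
CXCL11, chr4:76036127-76036155, minus strand: actcaaagagGGAAATTCCtgtgccataa

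The match of 9 letters began at -78 from the RefSeq start in CXCL1 and CXCL3, -77 in CXCL2, -90 in CXCL5, -91 in CXCL8, -176 in CXCL10 and -75 in CXCL11, in the last 2 on the opposite strand. The windows of CXCL1 and CXCL3 were 82.5% identical, those of CXCL2 and CXCL3 73.8% and those of CXCL1 and CXCL2 71.9%, so these 3 matches are not separate occurrences. The core of the interferon-stimulated response element, a pair of GAAA words with any 2 letters between them, was searched on both strands and found in CXCL9 at -171 and in CXCL10 at -221, and is in 1255 of the 35116 windows (3.57%). The other κB forms searched had no match in a member: GGGATTTCC (0.393% of windows) and 3 forms of 10 letters (0.191%, 0.111% and 0.0370%). A match describes letters and not a bound site. Only these fixed forms were searched, so a window, that of CXCL10 included, can hold κB forms that were not counted. In the count table CXCL2, CXCL3, CXCL5, CXCL8 and CXCL11 begin upstream of the RefSeq start. The 9-letter matches of CXCL2, CXCL3, CXCL5 and CXCL11 therefore lie within the span of the gene as counted. Those of CXCL1, CXCL8 and CXCL10 lie before it. The 250 upstream bases of CXCL10 are printed, since it alone held both kinds of match, and CXCL8 up to its first annotated base in the count table, since it had the most reads.
CXCL8, chr4:73740319-73740505, plus strand: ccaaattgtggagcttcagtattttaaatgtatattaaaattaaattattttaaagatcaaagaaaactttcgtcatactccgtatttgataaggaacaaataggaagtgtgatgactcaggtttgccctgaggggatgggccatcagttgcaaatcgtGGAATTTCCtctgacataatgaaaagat
CXCL10, chr4:76023498-76023747, minus strand: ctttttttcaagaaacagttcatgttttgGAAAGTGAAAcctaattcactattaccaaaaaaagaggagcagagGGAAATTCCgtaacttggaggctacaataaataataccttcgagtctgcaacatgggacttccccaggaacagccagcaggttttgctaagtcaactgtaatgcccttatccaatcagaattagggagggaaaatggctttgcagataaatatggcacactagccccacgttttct

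**Figure D1:**
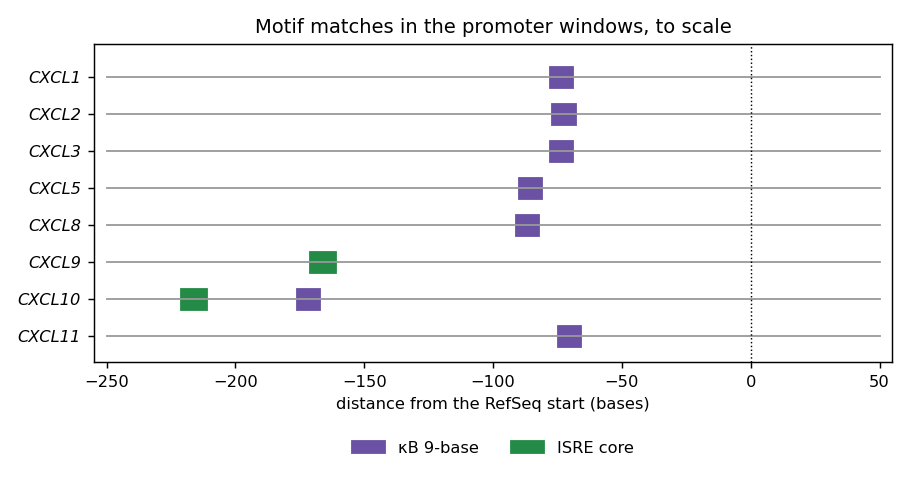
Distance in bases from the RefSeq start (horizontal axis) of the matches to the 9-letter κB form (purple) and the interferon response core (green) in the promoter windows of 8 CXC chemokines, 1 line per gene. The matches to the 9-letter form lie between -91 and -75 in 6 genes and at -176 in CXCL10. Forms of the κB site that were not searched are not drawn.

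CXCL8 carried nearly all of the CXC chemokine reads and rose with TNF-α in both cell types. In promyelocytes it had 604, 470 and 586 read pairs in the vehicle libraries and 6279, 6430 and 6843 in the TNF-α libraries. In granulocytes it had 2331, 2565 and 2683 with vehicle and 59479, 78012 and 57354 with TNF-α. The TNF-α and vehicle libraries were far apart within each cell type, and the lowest vehicle granulocyte library lay above the highest vehicle promyelocyte library. On library sizes scaled by TMM (trimmed mean of M-values) over the 12 libraries, the level rose from 19.1 ± 1.58 to 227 ± 10.5 CPM in promyelocytes (mean ± SD, n = 3), 11.9-fold, and from 88.2 ± 2.85 to 2693 ± 101 CPM in granulocytes, 30.5-fold. The log2 fold change was 3.60 (SE 0.0725, adjusted p = 2.68e-18) in promyelocytes and 4.92 (SE 0.0617, adjusted p = 2.94e-38) in granulocytes, where adjusted p-values are Benjamini-Hochberg values over all genes tested from edgeR's quasi-likelihood test, with 0.05 as the threshold. Only 40 of 16250 genes in promyelocytes and 64 of 16944 in granulocytes, CXCL8 included, had a log2 fold change at least as large. In bulk RNA, a change in the share of cells that express a gene and a change in RNA per cell cannot be told apart.

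The share of CXCL8 in the reads of the 9 members was 94.9% ± 2.04 in vehicle promyelocytes, 97.5% ± 0.379 in TNF-α promyelocytes, 97.4% ± 0.217 in vehicle granulocytes and 99.8% ± 0.0378 in TNF-α granulocytes (SD, n = 3). As a share of the whole library it went from 0.00190% to 0.0228% in promyelocytes and from 0.00926% to 0.256% in granulocytes. Ranked by CPM per kilobase of exon, CXCL8 stood between place 5309 and 6057 of all genes in the vehicle promyelocyte libraries and between 310 and 363 with TNF-α. In granulocytes it stood between 883 and 948 with vehicle and between 27 and 29 with TNF-α.

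**Figure D2:**
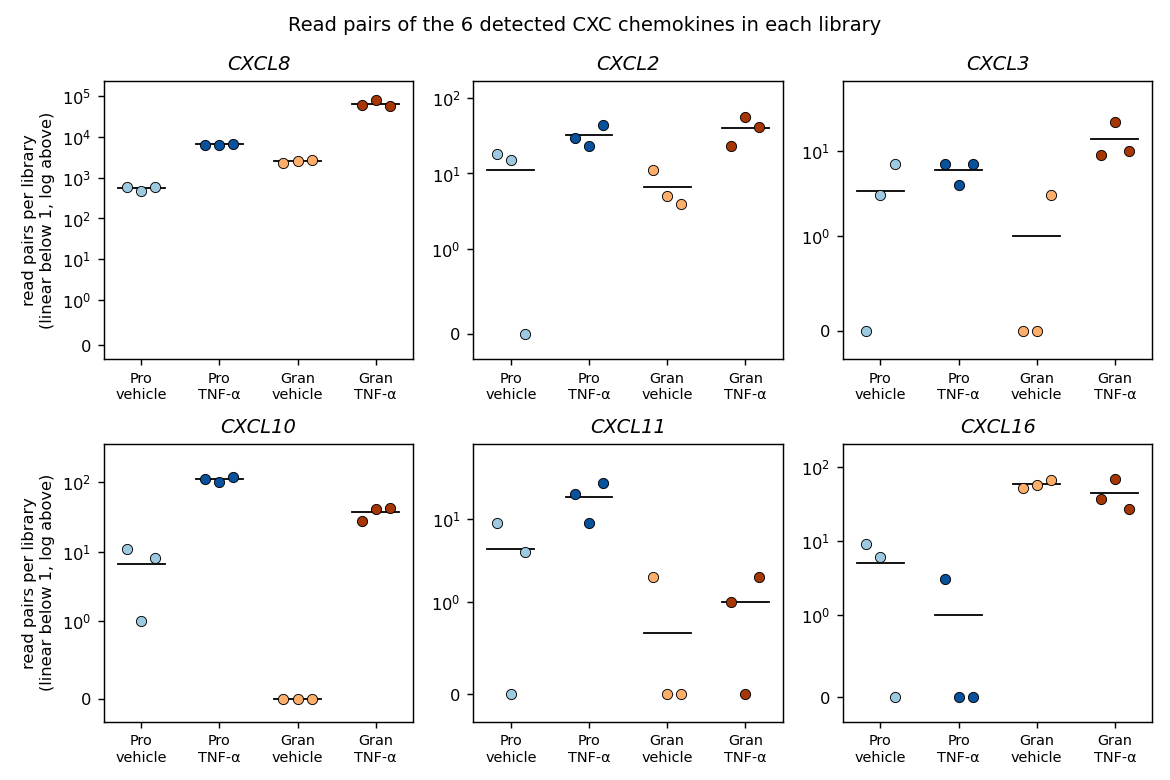
Read pairs per library (vertical axis, linear below 1 and logarithmic above) of the 6 members with any reads in the 4 groups (horizontal axis, Pro for promyelocyte and Gran for granulocyte). Points are libraries and lines are group means, and CXCL8 is 470 to 78012 while no other member passes 119.

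The other ELR members were low or absent. CXCL2 had 18, 15 and 0 read pairs in vehicle promyelocytes and 29, 23 and 44 with TNF-α. It had 11, 5 and 4 in vehicle granulocytes and 23, 55 and 41 with TNF-α. The vehicle and TNF-α libraries did not overlap in either cell type. In granulocytes CXCL2 rose, from 0.241 ± 0.159 to 1.62 ± 0.507 CPM (log2 fold change 2.77, SE 0.404, adjusted p = 3.89e-07, and 3.39 without vehicle replicate 1). In promyelocytes its mean was 0.380 ± 0.330 CPM with vehicle and 1.10 ± 0.283 CPM with TNF-α, and its log2 fold change of 1.56 (SE 0.524) missed the threshold by a little (adjusted p = 0.0522). That call rested on the settings: the adjusted p was 0.0482 with DESeq2's size factors, 0.0399 with all 12 libraries in 1 fit and 8.75e-04 without the expression filter. With libraries thinned to the smallest it was 0.0192, and with a replicate block 0.0244. With DESeq2 it was 0.447, and without vehicle replicate 1 it was 0.0396. It was 0.0573 to 0.178 when any other of the 6 libraries was left out, and without vehicle replicate 3, the library at 0, the log2 fold change was 0.98.

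CXCL3, a close copy of CXCL2 with the same receptor, had 0, 3 and 7 read pairs in vehicle promyelocytes and 7, 4 and 7 with TNF-α, which overlap, and was too low there to be tested. In granulocytes it had 0, 0 and 3 with vehicle and 9, 22 and 10 with TNF-α. It rose in granulocytes (adjusted p = 2.48e-05), by at least 5.22-fold when the vehicle libraries are set at the floor of 3 read pairs each. The fitted log2 fold change, 3.82, was 2.52 with a prior count of 2 and 6.85 without vehicle replicate 3. Without TNF-α replicate 2, or with all libraries thinned to the smallest, CXCL3 no longer passed the filter and was not tested. CXCL1 (ENSG00000163739.4, chromosome 4, 73869393 to 73871242) and CXCL5 (ENSG00000163735.6, chromosome 4, 73995642 to 73998779) had no read pair in any of the 12 libraries. Both lie between CXCL8 and CXCL3 in the cluster, and both hold the κB letters printed above.

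Among the CXCR3 ligands, CXCL10 rose with TNF-α in both cell types and reached its highest level in promyelocytes. It had 11, 1 and 8 read pairs in vehicle promyelocytes and 110, 100 and 119 with TNF-α. In granulocytes none of the 3 vehicle libraries had a read pair, and the TNF-α libraries had 28, 41 and 43. In promyelocytes the level rose 17.05-fold, from 0.224 ± 0.168 to 3.82 ± 0.290 CPM (log2 fold change 4.05, SE 0.337, adjusted p = 2.02e-08). In granulocytes it rose to 1.56 ± 0.348 CPM (adjusted p = 5.04e-11), at least 14.8-fold above the floor of the vehicle libraries. The fitted log2 fold change of 8.36 there depends on the prior count and was 4.42 with a prior count of 2, and the gene passed the filter only through its TNF-α libraries. With TNF-α, the mean CXCL10 level in promyelocytes was 2.45-fold that in granulocytes and the libraries did not overlap, the opposite order to CXCL8.

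CXCL11 had 9, 0 and 4 read pairs in vehicle promyelocytes and 20, 9 and 27 with TNF-α. In granulocytes it stayed at or under the floor, with 2, 0 and 0 read pairs with vehicle and 1, 0 and 2 with TNF-α. It passed the filter in neither cell type. Without the filter, its log2 fold change in promyelocytes was 2.12 (SE 0.540, adjusted p = 0.00181). Leaving out single libraries also let it pass the filter, with an adjusted p of 0.0113 without vehicle replicate 1, 0.101 without vehicle replicate 2, 0.0459 without vehicle replicate 3 and 0.0200 without TNF-α replicate 2. With TNF-α its level in promyelocytes, 0.642 ± 0.282 CPM, was at least 5.08-fold above the floor in granulocytes. CXCL9 (ENSG00000138755.5, chromosome 4, 76001275 to 76007488) had no read pair in any library. ART3, the protein-coding gene that overlaps this cluster, had 1 read pair in 1 TNF-α granulocyte library and none elsewhere.

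CXCL16, the transmembrane member, followed another pattern. It had 9, 6 and 0 read pairs in vehicle promyelocytes and 3, 0 and 0 with TNF-α, too few to be tested. In granulocytes it had 52, 56 and 67 with vehicle and 37, 68 and 27 with TNF-α, and these overlap. Its level was 2.03 ± 0.199 CPM with vehicle and 1.78 ± 0.614 CPM with TNF-α (log2 fold change -0.18, SE 0.240, adjusted p = 0.553). Without TNF-α replicate 3 the sign turned (log2 fold change 0.023, adjusted p = 0.952). With TNF-α, granulocytes stood at least 16.9-fold above the floor of the promyelocyte libraries.

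**Figure D3:**
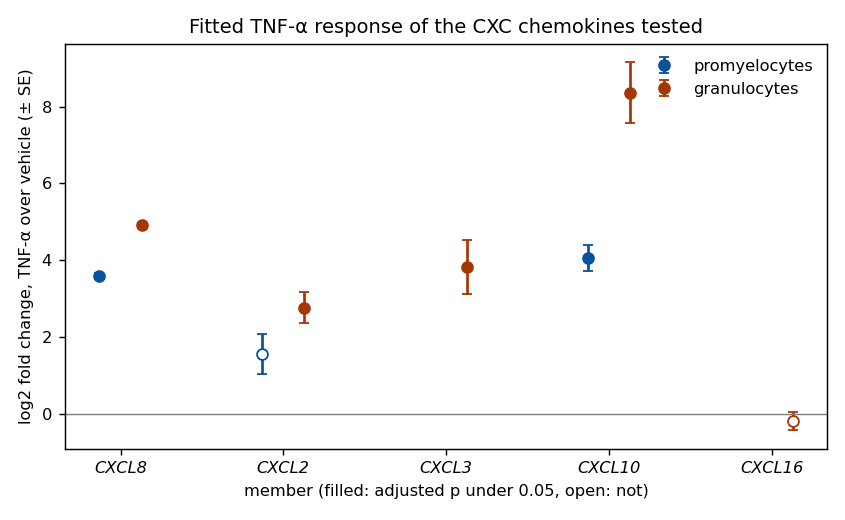
Log2 fold change of TNF-α over vehicle (vertical axis) with its SE for each member tested (horizontal axis), in promyelocytes (blue) and granulocytes (brown), filled where the adjusted p was under 0.05. In granulocytes CXCL8 lies at 4.92, CXCL2 at 2.77 and CXCL16 at -0.18, while the values of CXCL3 (3.82) and CXCL10 (8.36) rest on vehicle libraries at or under the floor and depend on the prior count.

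Of the 9 members, 6 had any reads. In promyelocytes 3 passed the filter and 2 rose (CXCL8 and CXCL10), where 14.8% of all genes tested were called in either direction, 8.15% rising and 6.65% falling. In granulocytes 5 passed the filter and 4 rose (CXCL8, CXCL2, CXCL3 and CXCL10), where 49.2% of all genes tested were called, 24.4% rising and 24.8% falling. None fell in either cell type. The median log2 fold change of the members tested was 3.60 in promyelocytes and 3.82 in granulocytes, beside -0.0094 and -0.0047 over all genes tested. The granulocyte median is the fitted value of CXCL3, and it was 2.77 with CXCL3 and CXCL10 set at their bounds. Members that are low in vehicle pass the filter through their TNF-α libraries, so these counts and medians are descriptions. All 3 members tested in promyelocytes had no TNF-α library at or below a vehicle library, as had 13.7% of all genes tested, and in granulocytes 4 of 5 had, beside 28.4%.

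Per kilobase of exon, CXCL8 was the highest member in every group, at 8.39, 99.9, 38.8 and 1184 CPM per kb in vehicle promyelocytes, TNF-α promyelocytes, vehicle granulocytes and TNF-α granulocytes. It stood 33.1-fold above CXCL2, the next member, in vehicle promyelocytes, 30.8-fold above CXCL10 in TNF-α promyelocytes, 53.3-fold above CXCL16 in vehicle granulocytes and 893-fold above CXCL10 in TNF-α granulocytes. Below CXCL8, the libraries of the other 5 detected members overlapped in vehicle promyelocytes. In TNF-α promyelocytes the order was CXCL10 (3.25 ± 0.246 CPM per kb), CXCL2 (0.733 ± 0.188), CXCL11 (0.336 ± 0.148), CXCL3 (0.0942 ± 0.0275) and CXCL16 (0.0135 ± 0.0233), with no overlap between neighbours. In vehicle granulocytes CXCL16 (0.728 ± 0.0711 CPM per kb) stood above CXCL2 (0.161 ± 0.106), and CXCL3, CXCL11 and CXCL10 were at or under the floor. In TNF-α granulocytes CXCL10 (1.33 ± 0.296 CPM per kb), CXCL2 (1.08 ± 0.338) and CXCL16 (0.636 ± 0.220) each overlapped the next, and CXCL3 (0.247 ± 0.0939) and CXCL11 (0.0237 ± 0.0237) followed without overlap.

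The responses of the cell types were compared by an interaction term fitted over the 12 libraries together. Differences between the experiments that act alike on vehicle and TNF-α libraries cancel in it. Those that alter the TNF-α response itself do not cancel, and they cannot be told apart from cell type. Of the 5 members tested, 2 passed the threshold, CXCL8 and CXCL10, where 24.0% of all genes tested did, 14.1% with the larger value in granulocytes and 9.88% with the smaller. The response of CXCL8 was 1.36 larger in granulocytes on the log2 scale (SE 0.0868, adjusted p = 4.24e-12), and 724 of 18124 genes had a difference at least as large. For CXCL10 the fitted difference was 4.40 (SE 1.38, adjusted p = 0.0219), but the granulocyte vehicle libraries were all at 0. Counted as a bound, the rise was at least 14.8-fold in granulocytes beside 17.05-fold in promyelocytes, which does not order the 2 responses. With a prior count of 2, the log2 fold change of CXCL10 was 4.42 in granulocytes and 3.72 in promyelocytes. Leaving out promyelocyte vehicle replicate 1, or any one of the granulocyte vehicle replicates, lost the CXCL10 call (adjusted p of 0.0556 to 0.0649). The differences of CXCL2 (1.25, SE 0.777, adjusted p = 0.269), CXCL3 (3.01, SE 1.22, adjusted p = 0.0740) and CXCL16 (1.99, SE 1.05, adjusted p = 0.183) missed the threshold. Each passed it without particular libraries: CXCL2 without promyelocyte vehicle replicate 3 (0.0273), CXCL3 without promyelocyte vehicle replicate 1 (0.0224) or granulocyte vehicle replicate 3 (0.0188), and CXCL16 without promyelocyte vehicle replicate 3 (0.0409) or promyelocyte TNF-α replicate 1 (0.0328). Over the libraries left out the fitted difference ranged from 0.76 (without promyelocyte vehicle replicate 1) to 1.86 (without granulocyte vehicle replicate 1) for CXCL2. It ranged from 1.93 (without promyelocyte vehicle replicate 3) to 6.12 (without granulocyte vehicle replicate 3) for CXCL3. For CXCL16 it ranged from 1.33 (without promyelocyte vehicle replicate 1) to 5.12 (without promyelocyte TNF-α replicate 1, which leaves that group at 0).

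With vehicle alone, 3 of the 5 members tested differed between granulocytes and promyelocytes, where 72.0% of all genes tested did, 35.7% being higher in granulocytes and 36.3% lower. CXCL8 was 4.62-fold higher in granulocytes (log2 difference 2.21, SE 0.0659, adjusted p = 7.29e-21). CXCL16 was 11.9-fold higher in granulocytes (log2 difference 3.52, SE 0.485, adjusted p = 3.23e-07), with 2.95 without promyelocyte vehicle replicate 3, the library at 0, and 4.19 without replicate 1. CXCL10 was called higher in promyelocytes (adjusted p = 2.21e-04), with 11, 1 and 8 read pairs beside 0 in every vehicle granulocyte library. Its promyelocyte mean was at least 2.13-fold over the floor, but replicate 2, at 1 read pair, lay under the floor. The gene passed the filter of this fit only through its TNF-α libraries. CXCL2 (log2 difference -0.69, SE 0.646, adjusted p = 0.346) and CXCL3 (-1.61, SE 1.05, adjusted p = 0.173) missed the threshold. CXCL2 passed it without promyelocyte vehicle replicate 3 (adjusted p = 0.0279), and CXCL3 without promyelocyte vehicle replicate 1 (0.0482) or granulocyte vehicle replicate 3 (0.0250). The log2 difference of CXCL2 was -0.20 without promyelocyte vehicle replicate 1 and -1.30 without granulocyte vehicle replicate 1, and that of CXCL3 was -0.53 without promyelocyte vehicle replicate 3 and -4.72 without granulocyte vehicle replicate 3.

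The receptors that read these ligands were also on the list examined. Of 8 CXC receptors, 4 passed the filter in both cell types, and CXCR6 (the receptor of CXCL16) and ACKR3 had no read pair in any library. CXCR1 had 0 to 9 read pairs per library, and the decoy receptor ACKR1 had at most 1. With TNF-α, 2 of the 4 tested rose and 1 fell in promyelocytes, and 1 rose and 2 fell in granulocytes. Of all genes tested, 8.15% rose and 6.65% fell in promyelocytes, and 24.4% rose and 24.8% fell in granulocytes.

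CXCR2, the shared receptor of the ELR chemokines, fell in both cell types while CXCL8 rose. It had 362, 293 and 265 read pairs in vehicle promyelocytes and 159, 139 and 167 with TNF-α. In granulocytes it had 1037, 1217 and 1206 with vehicle and 287, 318 and 251 with TNF-α. The groups did not overlap within a cell type. The level went from 10.6 ± 1.35 to 5.40 ± 0.523 CPM in promyelocytes (log2 fold change -0.95, SE 0.126, adjusted p = 1.48e-05) and from 40.2 ± 0.272 to 11.9 ± 0.927 CPM in granulocytes (-1.77, SE 0.0730, adjusted p = 7.69e-22). The difference of the 2 responses was -0.79 (adjusted p = 1.16e-04).

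CXCR3, the receptor of CXCL9, CXCL10 and CXCL11, had 95, 80 and 115 read pairs in vehicle promyelocytes and 60, 70 and 95 with TNF-α, which overlap (log2 fold change -0.34, adjusted p = 0.268). It fell in granulocytes, from 219, 214 and 268 read pairs to 117, 132 and 100 (-0.77, SE 0.127, adjusted p = 3.89e-06). CXCR4, the receptor of CXCL12, rose in promyelocytes from 19.3 ± 2.86 to 44.3 ± 2.79 CPM (log2 fold change 1.22, adjusted p = 2.04e-09). In granulocytes it was 8.47 ± 0.552 CPM with vehicle and 9.06 ± 0.931 CPM with TNF-α (0.07, adjusted p = 0.608), and the responses differed by -1.11 (adjusted p = 1.29e-06). CXCR5, the receptor of CXCL13, rose in both. In promyelocytes it had 5, 4 and 3 read pairs with vehicle, near the floor, and 18, 23 and 29 with TNF-α. The level there went from 0.138 ± 0.0309 to 0.804 ± 0.119 CPM (log2 fold change 2.53, adjusted p = 4.27e-04). In granulocytes it went from 4.92 ± 0.296 to 18.2 ± 0.707 CPM (1.87, adjusted p = 2.57e-18).

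**Figure D4:**
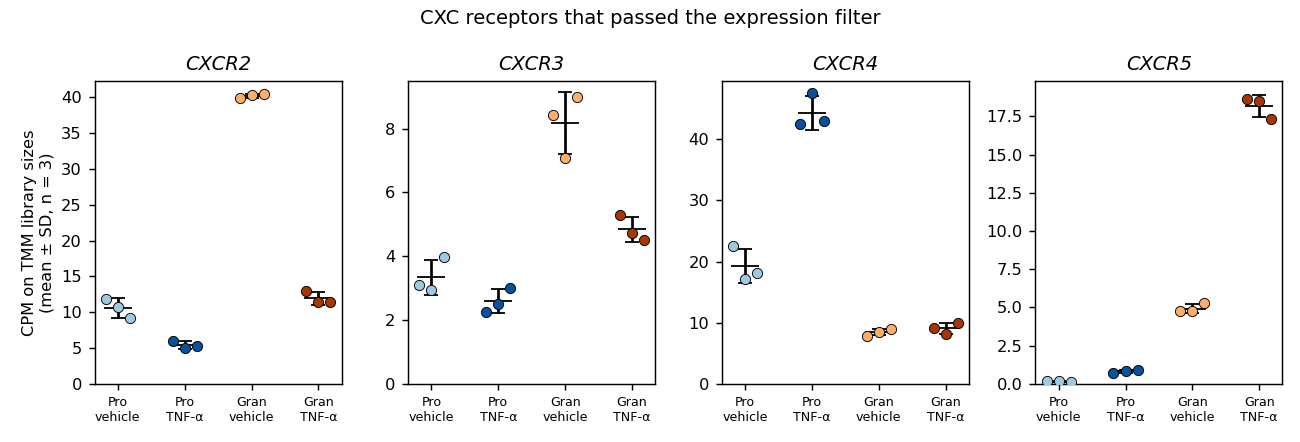
CPM on TMM library sizes (vertical axis, from 0) of the 4 CXC receptors that passed the filter, in the 4 groups (horizontal axis). Points are libraries and bars are the mean ± SD of 3, and CXCR2 falls from 40.2 to 11.9 CPM in granulocytes while CXCR5 rises from 4.92 to 18.2 CPM.

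None of 8 other CXC ligands was high enough to be tested. Of these, 5 had no read pair in any library (CXCL12, CXCL14, CXCL17, PF4 and PF4V1), CXCL6 had 1 in all, PPBP 4 in all and CXCL13 3 in all, and every one of these read pairs was in a granulocyte library. Both proteases that release CXCL16 were well expressed. ADAM17, which also releases TNF-α from the membrane, rose in promyelocytes (log2 fold change 0.34, adjusted p = 4.98e-04) and more in granulocytes (1.39, adjusted p = 8.97e-24, difference of the responses 1.08, adjusted p = 2.22e-11). ADAM10 fell by 0.11 on the log2 scale in granulocytes (adjusted p = 0.0465), and its log2 fold change in promyelocytes was 0.01 (adjusted p = 0.971).

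The NF-κB list of subunits and feedback genes moved upwards in both cell types. In promyelocytes 10 of 12 rose and none fell (median log2 fold change 1.55), and in granulocytes 11 of 12 rose and none fell (median 1.99), where 8.15% and 24.4% of all genes tested rose. NFKBIA, the inhibitor IκBα, rose by 3.91 in promyelocytes and 5.51 in granulocytes on the log2 scale (adjusted p = 1.75e-19 and 3.37e-39). TNFAIP3 (A20), another feedback inhibitor, rose by 3.63 and 5.08, and the subunits NFKB2 and RELB by 3.85 and 2.96 in promyelocytes and by 4.87 and 4.01 in granulocytes. RELA, the subunit best known for TNF-α signalling, was at -0.03 in promyelocytes (adjusted p = 0.812) and rose by 0.22 in granulocytes (adjusted p = 0.00107), and NFKBIZ passed the threshold in neither. Between the cell types, 9 of the 12 responses were larger in granulocytes and 2 smaller, the deubiquitinase CYLD (-0.67) and REL (-0.31), beside 14.1% larger and 9.88% smaller over all genes tested.

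Of 15 genes of the interferon axis, through which CXCL9, CXCL10 and CXCL11 are classically induced, 13 were tested. In promyelocytes 7 rose and none fell (median log2 fold change 0.43), and in granulocytes 5 rose and 2 fell (median 0.05). Of all genes tested, 14.8% were called in promyelocytes and 49.2% in granulocytes, and the 7 of 13 called in granulocytes are near the latter share. Between the cell types, 2 of the 13 responses were larger in granulocytes and 5 smaller, beside 14.1% and 9.88% of all genes tested. In granulocytes STAT2 went from 99.0 to 68.8 CPM and IFNAR2 from 91.0 to 77.6 CPM with TNF-α. IRF1 went from 29.9 to 32.1 CPM in promyelocytes and from 167 to 168 CPM in granulocytes. SOCS1, an inhibitor of JAK kinases that interferon induces, rose in promyelocytes from 0.768 ± 0.227 to 5.36 ± 1.13 CPM (log2 fold change 2.83, adjusted p = 1.92e-08) and was 2.82 ± 0.276 CPM with vehicle and 2.76 ± 0.332 CPM with TNF-α in granulocytes (-0.04, adjusted p = 0.888). The responses differed by -2.83 (adjusted p = 6.22e-08). JAK2, a kinase of the interferon γ receptor, rose in promyelocytes (0.94, adjusted p = 4.15e-09) and was at 0.08 in granulocytes (adjusted p = 0.251). IRF8, a myeloid transcription factor, rose by 0.75 in promyelocytes and 4.90 in granulocytes, and the interferon γ receptor chain IFNGR2 by 1.28 and 2.09. The interferons were near 0: IFNB1 had 1 read pair in each vehicle promyelocyte library, 3 to 7 with TNF-α and none in granulocytes, and IFNG had 1 read pair in all.

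Many chemokine mRNAs carry AU-rich elements that govern their decay, and the 8 genes listed for this were all tested. In promyelocytes 2 rose and 1 fell, and in granulocytes 5 rose and 1 fell, where 14.8% and 49.2% of all genes tested were called. ZC3H12A (regnase-1), a nuclease that degrades cytokine mRNAs, rose by 1.97 and 2.68 on the log2 scale in promyelocytes and granulocytes (adjusted p = 1.34e-12 and 5.45e-29). ZFP36 (tristetraprolin), a decay factor, rose by 0.76 and 0.50, and its relative ZFP36L2 fell by 1.20 and 0.47. ELAVL1 (HuR), a stabilizing protein, rose by 0.47 in granulocytes and was at -0.03 in promyelocytes.

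The genes most like CXCL8, by Pearson's r of log2 CPM over the 12 libraries, were C3 and ALAS1 (both 0.999), CCL4L2 (0.997), IFNGR2 (0.996) and NABP1 (0.996). For CXCL10 they were TIFA (0.983), TP53BP2 (0.972), ATP2C1 (0.971), GABPB1 (0.967) and UPF3B (0.960). For CXCL16 they were PHLDA1-DT (0.989), ADGRD1 (0.983), GIRGL (0.980), TNNT1 (0.977) and TXNDC11 (0.977). These 12 points share the 4 groups, so the values describe likeness of pattern between groups.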

How the data were processed

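Per the labels and the paper's methods, ribosomal RNA was depleted and read pairs were aligned to hg38 with STAR 2.5.3a. The authors counted read pairs per gene with featureCounts 1.5.2 on GENCODE 27, by strand (option 2), and deposited raw counts without normalization. Symbols came from a later GENCODE annotation, and 756 of the 58288 identifiers had none. The CXC chemokines and the gene lists were chosen with earlier results of these data known. Named genes are the 9 members, genes of the lists, the protein-coding neighbours within the chromosome 4 clusters and the 5 genes most like CXCL8, CXCL10 and CXCL16.

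Promyelocytes and granulocytes were fitted apart (edgeR 4.0.16, R 4.3.3; TMM, filterByExpr with minimum count 10 and minimum total 15, prior count 0.125, quasi-likelihood test, Benjamini-Hochberg adjustment), and the interaction and vehicle levels in 1 fit of 12 libraries. SEs were derived from the fold change and the F statistic. CPM per library used TMM over all 12, and likeness a prior count of 2. A fold against a group with at most 3 read pairs in every library is a lower bound against 3 per library. Per the paper's methods the 3 replicates of a group were flasks treated and lysed separately, so p-values measure the spread between flasks of 1 line within an experiment. With 3 libraries against 3, an exact permutation test cannot go below p = 0.1, so none was used. Replicate libraries differed by more than sampling noise. The fits were tested on simulated data in which only genes well above the floor changed, so changes of members near the floor were not covered. Motifs were searched with Python 3.11.15, and identities computed with Biopython 1.88. Alternatives were DESeq2 1.42.0, its size factors in edgeR, no filter, a prior count of 2, a threshold of 0.01, 1 fit for all libraries, thinned counts, a replicate block and each library left out.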

Additional observations from a re-analysis of the deposited data

Results flagged for a closer look

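The interaction term of edgeR passed the threshold for CXCL8 and CXCL10. It does not separate the cell type from the experiment in which each was treated. The TNF-α response of CXCL8 was larger in granulocytes by 1.36 on the log2 scale (SE 0.0868, adjusted p = 4.24e-12), and it kept its direction and stayed past the threshold under all 17 alternatives. For CXCL10 the fitted value was 4.40 (SE 1.38, adjusted p = 0.0219, 0.00417 to 0.0649 over 17 alternatives), and it is not shown to be a difference between the responses. The granulocyte vehicle libraries had no read pair, so the granulocyte rise is a lower bound (at least 14.8-fold) that lies below the 17.05-fold rise in promyelocytes.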

How the results depend on the processing

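The number of members changed with TNF-α was 2 in promyelocytes and 4 in granulocytes. In promyelocytes it was 4 without the expression filter and, over the libraries left out, 2 to 4, the 4 without vehicle replicate 1, which added CXCL2 and CXCL11. There it was 3, with CXCL2 added, with DESeq2's size factors, with 1 fit for all libraries and with thinned counts. In granulocytes it was 3 to 4. The number whose response differed was 2, and it was 1 at a threshold of 0.01 and 1 to 4 over the libraries left out: 4 without promyelocyte vehicle replicate 3 (CXCL2 and CXCL16 added) and 1 without granulocyte vehicle replicate 1 or 2. The number whose vehicle level differed was 3, and 3 to 4 over the libraries left out. Same-numbered libraries did not deviate together, with correlations of -0.146 to -0.0435 in promyelocytes and -0.0674 to -0.0129 in granulocytes. The correlations gave no sign that the numbers pair the samples, but with so few libraries per group they cannot settle it. In fits with a replicate block these counts were 3, 4 and 2, CXCL2 being added in promyelocytes (adjusted p = 0.0244). Of 274 values of single members under the alternatives, 254 kept their direction and side of the threshold, 14 passed it, 5 lost it (all of them the CXCL10 difference of responses) and 1 turned sign: the log2 fold change of CXCL16 in granulocytes ranged from -0.50 without TNF-α replicate 2 to 0.023 without TNF-α replicate 3. The causes were not tested. Part of the 254 was fixed in advance: a prior count of 2 left the adjusted p unchanged, and a threshold of 0.01 reused the same fit. Settings in which a member was not tested are not among the 274. At these depths CXCL2, CXCL3 and CXCL11, and CXCL10 and CXCL16 in the groups where they were lowest, had libraries at 0 or a few read pairs.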
